A study of Rattus norvegicus with 12 samples.

Results

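Plasma cells are the antibody-secreting end stage of the B cell lineage, and the colon holds many of them beneath its epithelium. The genes described here are those of the plasma cell programme and of the transport of IgA across the epithelium, chosen by name from a list of 10 names (Xbp1, Prdm1, Irf4, Tnfrsf17, Sdc1, Mzb1, Igj, Jchain, Pou2af1 and Pigr). Every probe of the array whose gene name equals one of these names was taken, which gave 11 probes of 8 genes out of 30367 probes in all. Pou2af1 has 3 of these probes, Prdm1 has 2 and the other genes have 1 each. The J chain gene is on the array under its older name Igj, and 0 probes carry the names Jchain or Mzb1. A probe named Pacap in the files matches Mzb1 by its transcript identifier, so its values are given beside the members as those of the Mzb1 probe, outside the 11. The names were proposed with earlier results of these data known, so the differences below are descriptions and give no independent support to any pattern.

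Colon of male Wistar rats was measured, 1 rat to 1 array, after colorectal distension (CRD) and sacrifice at day 60. Group C (rats C1 to C4) was normally handled and received placebo, 100 µL saline by gavage, from day 3 to day 60. Group M (rats M5 to M8) underwent neonatal maternal separation (NMS), 180 min daily from day 2 to day 14, and received the same placebo. Group D (rats D9 to D12) underwent the same NMS and received VSL#3, a mixture of probiotic bacteria, in 100 µL saline from day 3 to day 60. Comparing Group M with Group C asks what goes with NMS in the adult colon, and comparing Group D with Group M asks what goes with VSL#3 in separated rats. The RNA came from bulk colonic tissue taken at the same distance from the anus in each rat, so a difference in the number of plasma cells and a difference in RNA per cell cannot be told apart.

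A B cell that becomes a plasma cell replaces its own transcription programme with one for secretion. Irf4 and Prdm1 (Blimp-1) are transcription factors that drive this step, Xbp1 is a factor of the unfolded protein response that enlarges the secretory apparatus, and Pou2af1 (OBF-1, also called Bob1) is a coactivator of the octamer-binding factors that is active in B cells as well as in plasma cells. Tnfrsf17 (BCMA) is the survival receptor of plasma cells, Sdc1 (syndecan-1, CD138) is a surface proteoglycan of plasma cells and of epithelium, and Mzb1 is a chaperone of the endoplasmic reticulum that helps immunoglobulin assembly. The J chain joins IgA monomers into dimers, and Pigr, the polymeric immunoglobulin receptor of epithelial cells, binds such dimers and carries them into the lumen.

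The probes of Pou2af1 and Irf4, the members with the widest differences between Groups M and C, and of Pigr, the epithelial member, read the following 60 bases, printed 5′ to 3′ as in the files.
Pou2af1 (A_64_P120913): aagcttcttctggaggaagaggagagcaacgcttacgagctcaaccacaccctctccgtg
Irf4 (A_44_P342426): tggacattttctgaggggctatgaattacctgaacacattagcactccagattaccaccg
Pigr (A_44_P510738): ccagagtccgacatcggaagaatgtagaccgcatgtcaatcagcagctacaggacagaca
On the rn4 build that the files use, these lie at chr8:54559617-54559676 on the plus strand, at chr17:40173826-40173885 on the minus strand and, for Pigr, within chr13:43802502-43802936 on the plus strand. The interval of the Pigr probe spans 435 bases for a probe of 60 bases, so the bases it reads are not adjacent in the genome. The Pou2af1 probe has 3 reading frames free of stop codons, the Pigr probe 2 and the Irf4 probe 1. Positions of exons on rn4 were not used here.

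The stretch before the transcription start of 7 of the 9 genes looked up, Mzb1 included, was found in the RefSeq promoter table of the GRCr8 build, and Pou2af1 and Mzb1 have no entry in it. The motifs below were searched on both strands in the 250 bases before each start. They were the octamer ATGCAAAT, the E-box CACGTG, the endoplasmic reticulum stress element (CCAAT and CCACG with 9 bases between them), the core of the interferon-stimulated response element (GAAA and GAAA with 2 bases between them) and the TATA box TATAAA, none of which contains another. The octamer was found before 0 of the 7 genes, and 1.56% of the 33469 promoters of the table hold it. The promoters of Xbp1 and Pigr are shown, with the stress element in Xbp1 and the E-box in Pigr in capitals.
Xbp1 (chr14:84604373-84604622, plus strand): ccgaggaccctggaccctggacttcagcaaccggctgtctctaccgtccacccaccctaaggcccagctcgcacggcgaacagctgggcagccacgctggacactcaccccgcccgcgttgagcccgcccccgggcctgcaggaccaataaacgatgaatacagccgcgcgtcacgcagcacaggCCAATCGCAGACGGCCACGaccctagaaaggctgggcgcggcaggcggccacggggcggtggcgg
Pigr (chr13:44850932-44851181, plus strand): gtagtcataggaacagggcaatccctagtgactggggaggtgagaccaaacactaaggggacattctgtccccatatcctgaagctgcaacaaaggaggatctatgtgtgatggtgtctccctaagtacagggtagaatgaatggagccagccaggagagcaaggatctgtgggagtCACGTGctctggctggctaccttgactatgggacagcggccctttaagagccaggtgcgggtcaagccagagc
Counted from the transcription start, the stress element of Xbp1 runs from -65 to -47, and 0.0657% of all promoters of the table hold this motif. In Pigr the E-box runs from -73 to -68, and 5.59% of all promoters hold it. Tnfrsf17 holds 1 match to the interferon core (3.41% of promoters) and 1 TATA box (12.9%), and Irf4 holds 1 TATA box. A match of letters is a description and says nothing of binding in these rats.

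Values are log2 signals relative to the 75th percentile of the array, so that 0 is the level of this percentile, and levels are compared between rats for 1 probe and not between probes. The 75th percentile ranged from 1434 to 1953 over the 12 arrays and 0 spots were saturated. Of the 11 member probes, 10 were well above background on all 12 arrays, and the Irf4 probe was so on 10, with C4 and D9 the exceptions. Groups C and M lay on 1 slide and Group D on another with a scan of its own, so in every comparison with Group D the slide cannot be told apart from the group. The methods analysed 11 arrays, with rat D12 left out and no reason given, and D12 is shown here as a separate value. The 12 markers of colonocytes were all measured, with every one of them well above background on each array.

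The arrays differed in their B cell signal, also within the groups. The 9 markers of B cells that the array measures had a summed signal, given as a multiple of the 75th percentile, of 0.572, 7.51, 0.647 and 0.770 in C1 to C4. It was 11.1, 0.691, 6.20 and 7.63 in M5 to M8, and 0.490, 1.15 and 0.949 in D9 to D11. In D12 it was 18.4, the highest of all. C2, M5, M7, M8 and D12 therefore stood apart with a high B cell signal, while M6 lay in the range of C1, C3 and C4. On these 5 arrays 0 of the 9 markers were at background, and on the other arrays 1 to 5 of them were. The part that the B cell signal has in the differences below was not tested, and values of single rats are given so that it can be followed.

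**Figure D1:**
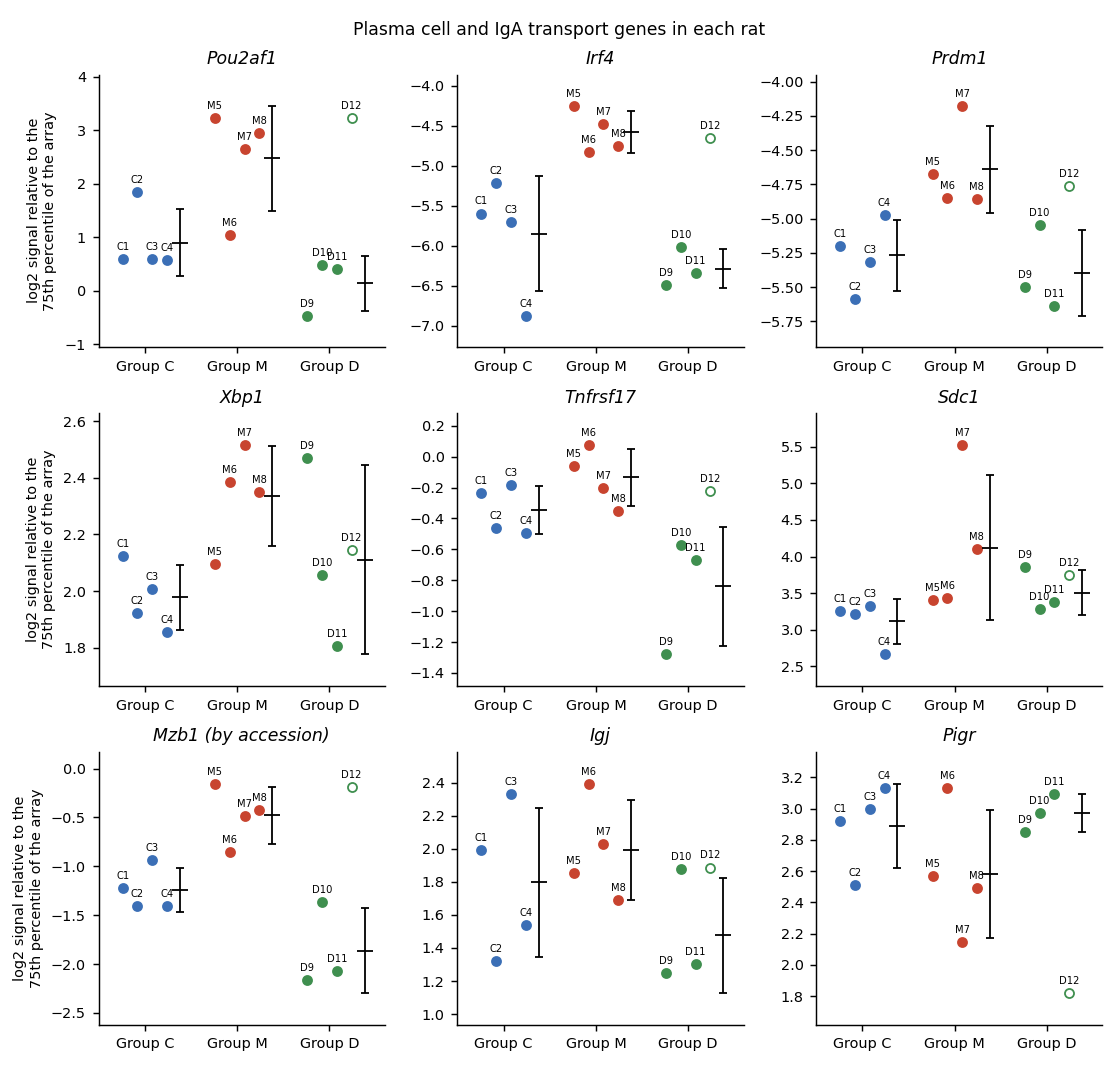
Log2 signal relative to the 75th percentile of the array (vertical axis, different in each panel) for 1 probe of each member gene and for the Mzb1 probe. The panel of Pou2af1 shows its brightest probe (A_43_P14436), and that of Prdm1 the dimmer of its 2 probes (A_44_P398574), at which Groups C and M do not overlap. Each point is 1 rat, the open point is D12, and the bars give the mean ± SD of Group C (n = 4), Group M (n = 4) and Group D without D12 (n = 3). For Pou2af1, M5, M7 and M8 lie between 2.66 and 3.23 and D12 at 3.23, while M6 lies at 1.04 and C2 at 1.84.

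In Group M vs Group C, 10 of the 11 member probes had a higher mean in Group M, where 47.9% of all probes did. The median of their log2 differences was 0.63, against -0.01 over all probes. By limma with Benjamini-Hochberg adjustment, 0 of 11 passed an adjusted p of 0.05, and 0.204% of all probes passed (62 of 30367). At an unadjusted p of 0.05, 7 of 11 passed, all of them higher in Group M, against 10% of all probes that passed and were higher. The criterion of the methods, which asks for unadjusted significance and a change of at least 2-fold, was met by 4 member probes, the 3 of Pou2af1 and that of Irf4, and in the same direction by 1.37% of all probes. The 4 rats of Group M lay above all 4 rats of Group C at 3 member probes, those of Irf4, Sdc1 and 1 of the 2 of Prdm1, as they did at 4.18% of all probes.

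Leaving out rat M6 changed these counts. Without it, 4 member probes passed at an adjusted p of 0.05 by limma, the 3 of Pou2af1 and that of Irf4, but 16.2% of all probes passed as well. With array weights, which give arrays unlike the rest less influence, 6 member probes passed, beside 28.3% of all probes. The counts of members have to be read against these backgrounds.

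Among the transcription factors, Pou2af1 differed most. Its brightest probe, A_43_P14436 (chr8:54561268-54561327 on rn4), had log2 signals of 0.58, 1.84, 0.59 and 0.57 in C1 to C4. In M5 to M8 they were 3.23, 1.04, 2.66 and 2.95, and in D9 to D11 -0.47, 0.47 and 0.40. M5, M7 and M8 were thus the high rats of Group M, M6 lay below C2, and Groups M and C overlapped. In D12 the value was 3.23, as high as in M5 and far above the other rats of Group D. The mean of Group M, 2.47 ± 0.98 (SD, n = 4), exceeded that of Group C, 0.90 ± 0.63 (SD, n = 4), by 1.58 on the log2 scale, or 2.98-fold, with a standard error of 0.48 and an adjusted p of 0.121 by limma.

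The other probes of Pou2af1 gave the same picture. A_64_P120912 (chr8:54559681-54559740) had a difference of 1.70 (adjusted p = 0.114, limma) and A_64_P120913, whose bases are shown above, of 1.62 (adjusted p = 0.116, limma). At both of these probes M5, M7, M8 and D12 were the 4 highest arrays, as at the first, and C2 came next. Without M6 the differences of the 3 probes were 2.05 to 2.16 with adjusted p values of 0.0120 to 0.0133 by limma.

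Irf4 had log2 signals of -5.60, -5.21, -5.71 and -6.87 in C1 to C4, of -4.25, -4.83, -4.48 and -4.75 in M5 to M8 and of -6.49, -6.01 and -6.34 in D9 to D11. All 4 rats of Group M lay above all rats of Group C, M6 included, and D12 lay among Group M at -4.65. The log2 difference between Groups M and C was 1.27 ± 0.31 (SE), or 2.41-fold, with an adjusted p of 0.0989 by limma. In C4 the probe was not well above background, so the level of this rat is the least certain of its group. Without C4 the log2 difference was 0.93 (adjusted p = 0.129, limma), less than the 2-fold change that the criterion of the methods asks for. Without M6 the difference was 1.35, with an adjusted p of 0.0312 by limma. With normexp background correction it was 0.45 (adjusted p = 0.0553, limma), so the size of the fold depends on how the background is treated.

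Prdm1 was measured by 2 probes on chromosome 20 of rn4 that differed in how far the groups lay apart. At A_44_P398574 (chr20:48440839-48440898) Group C ranged from -5.59 to -4.97 and Group M from -4.85 to -4.18, with M7 the highest rat. The groups did not overlap, and the log2 difference was 0.63 (adjusted p = 0.123, limma). With normexp background correction this difference was 0.31 (adjusted p = 0.125, limma). At A_44_P746333 (chr20:48438573-48438632) the difference was 0.38 (adjusted p = 0.231, limma), and M8 at -3.03 lay below C1 at -3.02 and C3 at -2.79. Both probes had M7 as their highest array.

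Xbp1 (A_64_P011894, chr14:86156913-86156972) had 2.12, 1.92, 2.01 and 1.86 in C1 to C4, and 2.09, 2.38, 2.52 and 2.35 in M5 to M8. Only M5 lay within the range of Group C. The log2 difference was small, 0.36 with a 95% interval from 0.03 to 0.69 and an adjusted p of 0.189 by limma. D9 at 2.47 was nearly as high as M7, while D10 and D11 had 2.06 and 1.81 and D12 had 2.14.

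For the surface proteins of plasma cells the picture was uneven. Sdc1 (A_43_P14872, chr6:32275097-32275156) had 3.26, 3.22, 3.33 and 2.66 in C1 to C4, and 3.41, 3.44, 5.53 and 4.10 in M5 to M8. M7 alone stood far above the other rats, whereas M5 and M6 lay just above C3. Its log2 difference of 1.0 had a wide 95% interval, from 0.08 to 1.93 (adjusted p = 0.190, limma), and it was 0.53 without M7. Tnfrsf17 (A_42_P826853, chr10:4187731-4187790) had -0.23, -0.46, -0.19 and -0.50 in C1 to C4 and -0.06, 0.08, -0.20 and -0.35 in M5 to M8. The groups overlapped, with a log2 difference of 0.21 and a 95% interval from -0.16 to 0.58 (adjusted p = 0.493, limma).

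Igj, the J chain gene (A_44_P515627, chr14:21125752-21125811), showed no such separation. Its log2 signals were 1.99, 1.32, 2.33 and 1.54 in C1 to C4 and 1.85, 2.39, 2.03 and 1.69 in M5 to M8. The highest rats of both groups, C3 and M6, differed by little, and C2, high in B cell signal, was the lowest rat of Group C. The log2 difference was 0.19, with a 95% interval from -0.35 to 0.74 and an adjusted p of 0.690 by limma. The probe of Mzb1 differed from this, with -1.22, -1.41, -0.94 and -1.40 in C1 to C4 and -0.16, -0.86, -0.48 and -0.42 in M5 to M8. There all rats of Group M lay above all rats of Group C, by 0.76 on the log2 scale (adjusted p = 0.107, limma), and D12 at -0.19 lay next to M5.

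Pigr was the single member probe with a lower mean in Group M. It had 2.92, 2.51, 3.00 and 3.13 in C1 to C4, 2.57, 3.13, 2.14 and 2.49 in M5 to M8, and 2.85, 2.97 and 3.09 in D9 to D11. The 5 lowest values, of D12 (1.82), M7, M8, C2 and M5, were those of the 5 arrays with the high B cell signal, and M6 was as high as C4. The log2 difference between Groups M and C was -0.31, with a 95% interval from -0.76 to 0.15 and an adjusted p of 0.406 by limma. Of the 12 markers of colonocytes 6 were higher in Group M (47.9% of all probes), with a median log2 difference of 0.01. At an unadjusted p of 0.05 by limma 3 higher and 1 lower passed (10% and 12.6% of all probes). The lower one was Car1, a carbonic anhydrase of colonocytes, named after its values were seen. It differed by -1.61 and met the criterion of the methods, as did 0.935% of all probes in this direction. By the naming rule, Cdh1 (E-cadherin) had a difference of -0.24, Epcam (an adhesion molecule of all epithelial cells) 0.24 and Krt20 (a keratin of surface colonocytes) 0.56, with adjusted p values of 0.362, 0.340 and 0.197 by limma.

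**Figure D2:**
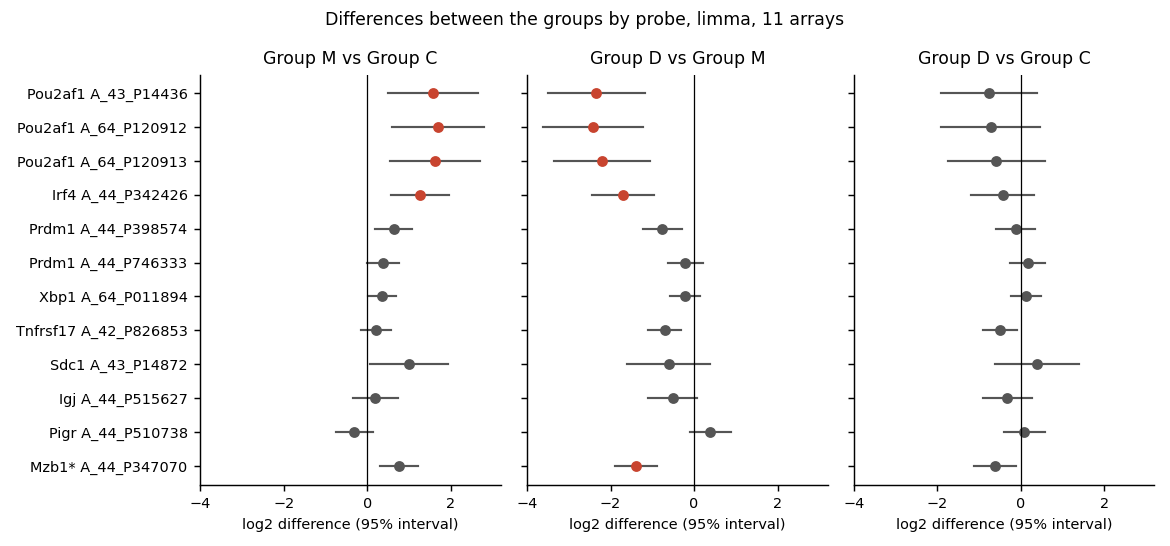
Log2 differences between group means with 95% intervals by limma on 11 arrays (horizontal axis), for the 11 member probes and the Mzb1 probe (asterisk, matched by its transcript identifier). Red points met the criterion of the methods. In Group D vs Group M the 3 probes of Pou2af1 lie between -2.42 and -2.21 and Irf4 lies at -1.70.

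In Group D vs Group M, 10 of the 11 member probes had a lower mean in Group D and Pigr a higher one, where 51.8% of all probes were higher in Group D. This comparison shares the rats of Group M with the one above. The median log2 difference was -0.70, against 0.01 over all probes. By limma 0 of 11 passed an adjusted p of 0.05 (0.171% of all probes), 6 passed an unadjusted p of 0.05, each lower in Group D (10.3%), and 4 met the criterion of the methods, again the 3 of Pou2af1 and that of Irf4 (1.57% in this direction). D9 to D11 lay below every rat of Group M at 6 member probes, those of Pou2af1, Irf4 and Tnfrsf17 and A_44_P398574 of Prdm1, as they did at 7.38% of all probes.

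The differences of the Pou2af1 probes were -2.34, -2.42 and -2.21, or 4.61-fold to 5.36-fold lower, with adjusted p values of 0.0830 to 0.0848 by limma. Irf4 was 3.26-fold lower in Group D (log2 difference -1.70, adjusted p = 0.0724, limma), where it was well above background in 2 of the 3 rats. For Tnfrsf17, D9, D10 and D11 had -1.28, -0.57 and -0.67, all below the lowest rat of Group M, with a difference of -0.70 (adjusted p = 0.0969, limma). Igj had 1.25, 1.88 and 1.30 in D9 to D11, of which D10 lay within Group M, and differed by -0.52 (95% interval -1.11 to 0.08, adjusted p = 0.290, limma). The Mzb1 probe had -2.16, -1.36 and -2.07 in D9 to D11, below all rats of Group M, and differed by -1.38 (adjusted p = 0.0542, limma), past the criterion of the methods. Xbp1 and Sdc1 overlapped between the groups, with differences of -0.23 and -0.61.

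Single rats carried weight here as well. Without M6, 5 member probes passed at an adjusted p of 0.05 by limma, those of Pou2af1 and Irf4 and A_44_P398574 of Prdm1, beside 14.8% of all probes. Without C4, which enters only through the estimate of the spread, Irf4 alone passed (adjusted p = 0.0346, limma), beside 0.0329% of all probes. Array weights gave 7 member probes (22.7% of all probes), normexp background correction 2 (1.09%) and a filter on dim probes 1 (1.24%). The 2 that passed with normexp were Irf4 at -0.57 and A_43_P14436 of Pou2af1 at -2.26 (adjusted p = 0.0388 and 0.0489, limma). The latter was close to its -2.34 without normexp. The differences of A_64_P120912 and A_64_P120913 of Pou2af1 were smaller with normexp, -1.64 and -1.49 (adjusted p = 0.0534 and 0.0556, limma). So was that of A_44_P398574 of Prdm1, -0.30 (adjusted p = 0.167, limma). With D12 in Group D, 0 of the 11 separated the groups any longer, the Pou2af1 differences shrank to between -1.66 and -1.50 and that of Pigr to 0.10, with adjusted p values of 0.401 to 0.926 by limma for these 4 probes.

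Between Groups D and C, 4 of the 11 probes were higher and 7 lower in Group D (48.2% of all probes were higher), the median log2 difference was -0.32 against -0.01 over all probes, and 0 passed an adjusted p of 0.05 by limma (0.00659% of all probes). The probe of Tnfrsf17 alone passed an unadjusted p of 0.05, lower in Group D (2.98% of all probes), and 0 met the criterion of the methods (0.369%). Tnfrsf17 was lower in D9 to D11 than in every rat of Group C, by 0.50 on the log2 scale (a difference of -0.50, adjusted p = 0.757, limma), and D12 at -0.22 lay within Group C. A_43_P14436 of Pou2af1 was the other of 2 probes at which Group D lay below Group C (4.02% of all probes), with a difference of -0.76 and a 95% interval from -1.92 to 0.40.

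**Figure D3:**
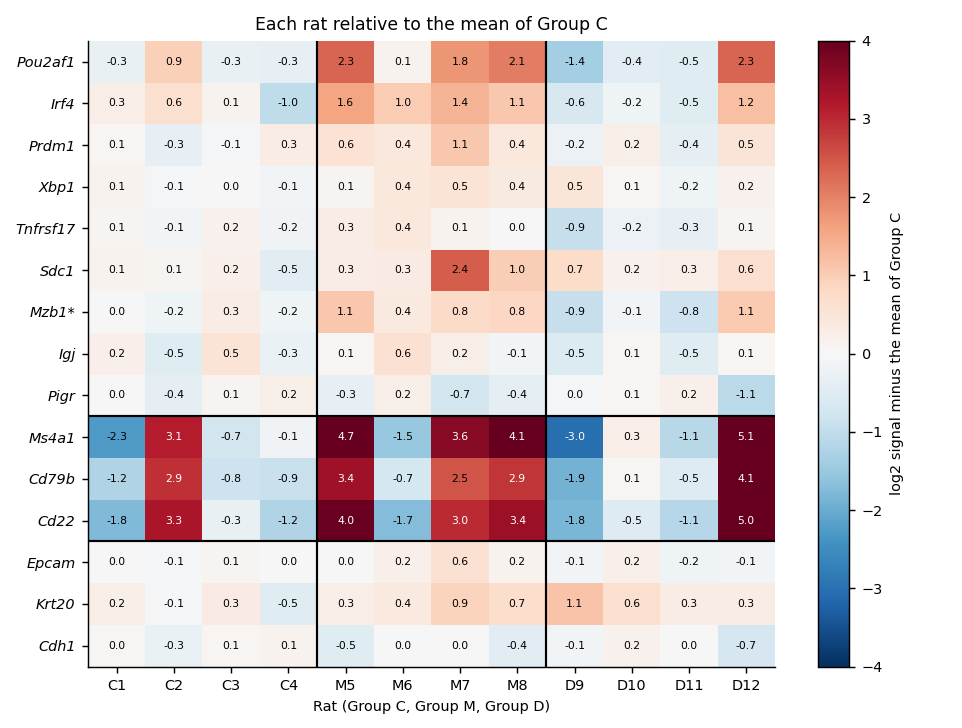
Log2 signal of each rat minus the mean of Group C, for the members (upper block, with the same probes as in the plot of levels and the Mzb1 probe marked by an asterisk), for 3 B cell genes (middle block) and for 3 epithelial genes (lower block). Red is higher and blue lower, and the colours end at 4 while the numbers give the values. M5, M7, M8 and D12 are red at Pou2af1, Irf4 and the Mzb1 probe as well as at the B cell genes, and Igj and Xbp1 do not follow them. C2, also red at the B cell genes, has 0.94 at Pou2af1, 0.64 at Irf4 and -0.17 at the Mzb1 probe. M6, low at the B cell genes, has 1.02 at Irf4 and 0.39 at the Mzb1 probe.

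The genes of the B cell lineage were the nearest in kind to the members. The 5 arrays with the highest summed signal of the B cell markers were also the 5 with the highest Pou2af1. Ms4a1 (CD20) was well above background on 7 of the 11 arrays and 2.73 higher in the mean of Group M than of Group C (adjusted p = 0.310, limma). Of the 9 B cell markers measured, all 9 had a higher mean in Group M than in Group C (47.9% of all probes), with a median difference of 2.01. By limma 0 passed an adjusted p of 0.05 (0.204% of all probes). At an unadjusted one 0 passed in either direction (10% of all probes higher and 12.6% lower). Pax5, which holds B cells in their state, differed by 0.25, Bach2, which delays the plasma cell step, by 1.36 and Bcl6, a factor of germinal centre B cells, by 0.85, with adjusted p values of 0.288, 0.189 and 0.16 by limma. Pax5 and Bach2 were matched by transcript identifier, and Cd79a was not found on the array by name or identifier. Summed levels of the 9 T cell markers ran alongside, with 5.23 in C2, 3.15 to 4.58 in M5, M7 and M8 and 9.79 in D12, against 0.678 to 1.24 on the other 7 arrays. The 6 markers of lymphoid follicle stroma, Madcam1 among them, split the arrays in the same way, with a summed signal of 26.0 in C2, 19.1 to 26.3 in M5, M7 and M8 and 29.9 in D12, against 6.12 to 8.08 on the other 7. The part that follicle tissue has in the differences of the members was not tested.

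Immunoglobulin transcripts themselves could be followed only in part. No probe carries the name Igha, Igkc or Ighm, and 10 probes have an immunoglobulin chain in their description, which were looked up after values had been seen. Since these genes resemble each other closely, a probe may also read the RNA of a neighbour, and its chain is uncertain. The gamma-2A probe (A_64_P095554, chr6:138346476-138346535) had 3.42, 3.07, 3.41 and 3.01 in C1 to C4, 0.98, 0.77, 1.04 and -0.39 in M5 to M8 and 2.34, 1.96, 1.42 and 1.68 in D9 to D12. Every rat of Group M lay below every rat of Groups C and D, and the log2 difference between M and C was -2.63, or 6.18-fold lower, with an adjusted p of 0.0268 by limma. This was the only one of the 10 that passed in this comparison.

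Of the 3 gamma-2B probes, 2 were high on the arrays with the high B cell signal. A_64_P024772 had -1.66, 3.52, -1.56 and -0.83 in C1 to C4, 3.89, -1.60, 3.31 and 3.74 in M5 to M8, and 4.41 in D12 against -2.70 to 0.30 in D9 to D11, so that C2, M5, M7, M8 and D12 were its high arrays. A_64_P086919 had the same 5 high arrays. The third, A_44_P320999, was highest in M5, M8, M7 and D12, from -0.11 to 1.11. In C2 it had -1.25, between C1 at -0.77 and C3 at -1.85. For A_64_P015758, 1 of 2 lambda-2 probes, the difference between Groups M and C was -0.28 (adjusted p = 0.696, limma), and for a kappa chain probe (A_64_P386600) it was 0.25 (adjusted p = 0.827, limma). Both were well above background on all 12 arrays, and their highest rats, D11 and M6, have a low B cell signal. The other lambda-2 probe, A_44_P1007841, also well above background on all 12 arrays, differed by 0.39 (adjusted p = 0.482, limma), and M5 at -0.17 and D12 at -0.51 were its highest arrays.

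**Figure D4:**
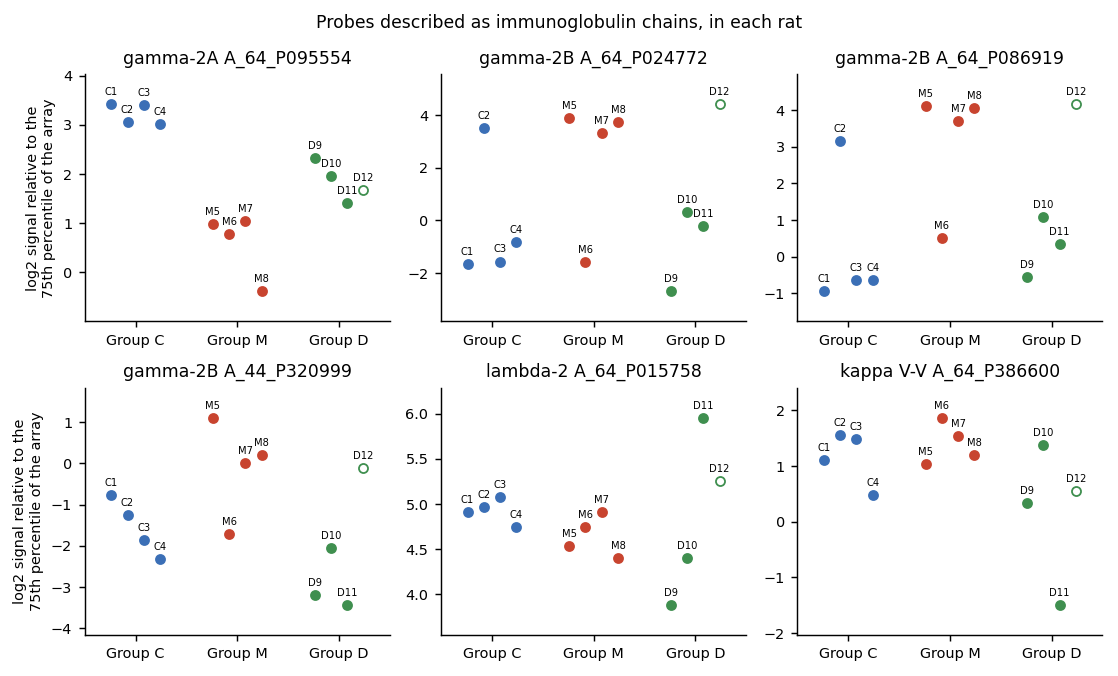
Log2 signal relative to the 75th percentile of the array (vertical axes) for 6 probes described as immunoglobulin chains, with 1 point per rat and D12 open. The gamma-2A probe separates Group M, from -0.39 to 1.04, from Group C, from 3.01 to 3.42, and the upper 2 of the 3 gamma-2B probes are high in C2, M5, M7, M8 and D12, the lower in the last 4 of these.

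The signals that lead B cells to IgA and plasma cells to the gut were described by a list of 25 genes for switching, survival and homing, of which 23 were measured. In Group M vs Group C 17 of the 23 were higher (47.9% of all probes), with a median log2 difference of 0.62. By limma 0 passed an adjusted p of 0.05 (0.204% of all probes) and 8 passed an unadjusted one, all higher in Group M (10% of all probes). The criterion of the methods was met by 5, each higher (1.37% of all probes), among them Il5, Il6, Il10 and Il21, the last 2 named after their values were seen. Il21 was well above background in 1 rat of Group M and 0 of Group C, so that its fold is not known. Il10 was so in 4 rats of Group M and 2 of Group C. Il5, which supports IgA-producing cells in rodents, had -5.12, -6.33, -3.10 and -4.30 in M5 to M8 and -7.47 to -6.77 in Group C, a difference of 2.47 (adjusted p = 0.105, limma), with 1 of the 4 rats of Group C well above background. In D12 it was -7.48, so that unlike Pou2af1, Il5 was low in this rat. Il6 was well above background in 1 rat of Group M, M7 at -4.56, and in D12 at -4.88. The other rats of Group M, from -8.11 to -6.98, and all of Group C, from -8.99 to -8.29, were not well above background, so that no fold is given.

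Among survival and homing factors, Tnfsf13 (APRIL), a ligand of Tnfrsf17, differed by -0.44 between Groups M and C and Tnfsf13b (BAFF) by 0.18, and Ccl28, the epithelial chemokine for IgA plasma cells, by -0.39, with adjusted p values of 0.288, 0.846 and 0.580 by limma. Ccr10, the receptor of Ccl28 on these cells, was 0.51 higher (adjusted p = 0.141, limma), and in Group D vs Group M it was lower by -0.83, with D9 to D11 below every rat of Group M (adjusted p = 0.0839, limma). Madcam1, the vessel ligand for gut homing, was 1.53 higher in Group M and Itgb7, a chain of its receptor, 0.62 (adjusted p = 0.158 and 0.471, limma).

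Of 58 genes of the secretory pathway, which plasma cells share with goblet and other secreting cells, 53 were measured. In Group M vs Group C 42 of them had a higher mean (47.9% of all probes) and the median log2 difference was 0.25. By limma 0 passed an adjusted p of 0.05 (0.204% of all probes). At an unadjusted one 15 higher and 2 lower passed (10% and 12.6% of all probes). Hspa5 (BiP), the main chaperone of the endoplasmic reticulum, had 3.26, 3.93, 3.30 and 2.44 in C1 to C4 and 4.07, 3.96, 5.40 and 4.80 in M5 to M8. The groups did not overlap, M7 was the highest rat, as for Sdc1, Xbp1 and Prdm1, and the difference was 1.32 (adjusted p = 0.156, limma). The summed signal of the 12 colonocyte markers was highest in M7 too, at 362, with D9 next at 305. The part that epithelium has in these values was not tested. Pdia4, a disulfide isomerase, also separated the groups with a difference of 0.87 (adjusted p = 0.132, limma), and D9 at -0.72 exceeded all rats but M7. Dnajb9, a target of Xbp1, differed by 0.40, Sel1l, of the degradation complex, by 0.15, Ern1, the kinase that splices Xbp1 mRNA, by -0.37, and its epithelial relative Ern2 by -0.78, with adjusted p values of 0.178, 0.575, 0.427 and 0.132 by limma.

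Genes that induce Pigr or carry it through the cell were all measured, 28 of 28. Between Groups M and C 14 were higher (47.9% of all probes) and the median difference was 0.02. At an unadjusted p of 0.05 by limma 5 higher and 7 lower passed (10% and 12.6% of all probes). At an adjusted one 0 passed (0.204% of all probes). The criterion of the methods was met by 2 genes, both lower in Group M (0.935% of all probes) and named after their values were seen, Tlr3 (a receptor for double-stranded RNA, -1.11) and Il17a (a cytokine that induces Pigr, -1.24, well above background on 2 of the 11 arrays). Irf1, which mediates the interferon response of Pigr, differed by 0.21 and Il17ra by 0.08, with adjusted p values of 0.399 and 0.686 by limma. Ifng was not well above background on any of the 12 arrays. Of 14 further regulators and products of plasma cells 13 were measured, with 11 higher in Group M (47.9% of all probes) and a median difference of 0.22. By limma 2 higher and 1 lower passed an unadjusted p of 0.05 (10% and 12.6% of all probes), and 0 passed an adjusted one (0.204%).

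In Group D vs Group M the same lists had median differences of -0.83 (switching, survival and homing), -0.31 (secretory pathway) and -1.90 (22 genes of B cell state). They were -0.37 (other regulators and products) and -0.08 (induction and transport of Pigr). In each list 0 genes passed an adjusted p of 0.05 by limma (0.171% of all probes). At an unadjusted p of 0.05 by limma, 8 of 23, 18 of 53, 8 of 22, 6 of 13 and 4 of 28 passed and were lower, in this order (10.3% of all probes). Those that passed and were higher were 1, 3, 0, 0 and 4. The criterion of the methods was met by 3, 1, 2, 0 and 0, all lower (1.57% of all probes). In Group D vs Group C the medians were -0.14, -0.03, -0.44, -0.16 and -0.06, again with 0 genes past an adjusted p of 0.05 by limma (0.00659% of all probes).

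The genes most alike in pattern were sought among 12555 probes of named genes well above background on all 12 arrays, by Pearson's r over the 12 arrays, which share slides and the split in B cell signal. For Igj they were Zfp347 (r = 0.782), Usp18, Rhbdd1, Stx19 and Eif2ak3 (r = 0.747). For Pigr they were Ndufa13 (r = 0.981), Shpk, Mcoln1, Grhl2 and Cftr (r = 0.964), and for Pou2af1, added after its values were seen, Hmgn3 (r = 0.983), Eaf2, Lcp1, Ncf4 and Rad18 (r = 0.977). Whether r of this size stand out in so wide a search was not tested. The other members were left out of this search. Their r with Igj over the 12 arrays ran from -0.002 for Pigr to 0.783 for Tnfrsf17.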

How the data were processed

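Colonic RNA was hybridized after Cy3 labelling, each rat on its own array of 1 colour. Per the file headers, Feature Extraction 10.5.1.1 had subtracted the background and corrected trends within the array, and the deposited intensities were not normalized between arrays. The authors' matrix holds log2 values whose columns share 1 distribution, and it was used as an alternative. Marks for control, outlier and saturated spots and for spots well above background came from the same files.

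Here the log2 intensity minus the log2 of the array's 75th percentile was used, without control and outlier spots, with the spots of a probe averaged. For 19 of 30367 probes some array gave no value. The comparisons came from limma 3.58.1 in R 4.3.3, in which lmFit and eBayes took the 11 arrays of the 3 groups together, and p values were adjusted by Benjamini-Hochberg across the whole set of probes (threshold 0.05). The number of arrays limits the precision, and p values set a difference of means against the spread between rats within groups, pooled over the 3 groups. The criterion of the methods was an analysis over the 3 groups and a Tukey comparison, both unadjusted at 0.05, with a 2-fold change. The procedure was tested on simulated data. Named genes were every member probe and genes taken from the lists by their role, 1 probe per gene with the highest mean signal, with any list gene past limma's threshold. The members, the lists and the rule were chosen with earlier results of these data known. For a named gene not well above background in a whole group, a lower bound was computed from the lowest signal well above background on each array of that group. These bounds are not printed here. Alternatives were all 12 arrays, normexp background with an offset of 50, quantile normalization, a median shift, the authors' matrix, outlier spots kept, a filter on dim probes, each rat left out, the replicate number as a block, array weights, only the 2 compared groups, and the criterion of the methods. Data handling used the R package data.table, version 1.17.8, and sequences and figures used Python 3.11.15 and matplotlib 3.10.9. Some genes of this rule are not reported here.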

Additional observations from a re-analysis of the deposited data

Results flagged for a closer look

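Among the 36 groups of 4 rats examined for the 11 member probes and the Mzb1 probe, 2 held a rat that lay far from the other 3, and chance alone gives about 1 in 20 such groups. For Pou2af1 (A_43_P14436) this was C2 in Group C, at a log2 signal of 1.84 where the nearest rat had 0.59. For Sdc1 it was C4 in Group C, at 2.66 where the nearest rat had 3.22.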

How the results depend on the processing

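Of the recomputed differences of the member probes, 657 kept direction and side of the threshold, 26 newly passed it and 10 changed sign. The count of member probes past an adjusted p of 0.05 was 0 in each comparison. In Group M vs Group C it was 6 with array weights (28.3% of all probes) and 0 to 4 with each rat left out in turn. In Group D vs Group M it was 2 with normexp (1.09%), 1 with the filter on dim probes (1.24%) and 7 with array weights (22.7%). With each rat left out it was 0 to 5 there. The cause was not tested. In Group D vs Group C it stayed 0. The criterion of the methods, which is unadjusted, was met by 4 member probes in Group M vs Group C, by 4 in Group D vs Group M and by 0 in Group D vs Group C. With Benjamini-Hochberg adjustment of this criterion, 0 met it in Group M vs Group C.

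The sign changes were these. With all 12 arrays the differences of Group D vs Group C became 0.012, 0.031 and 0.12 for Pou2af1, 0.031 for Prdm1 (A_44_P398574) and -0.21 for Pigr. In the same comparison normexp gave 0.0067 for this Prdm1 probe, and with each rat left out Pigr ranged from -0.047 (without C2) to 0.161 and Xbp1 from -0.046 (without D9) to 0.285. Array weights gave -0.094 for Igj in Group M vs Group C and 0.021 for Prdm1 (A_44_P746333) in Group D vs Group M.

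With the replicate number as a block, 0 member probes passed in each comparison. The numbers pair no rats by the labels, and same-numbered rats had correlations of -0.56 to 0.13 in their deviations from the group means. Irf4 is limited by its signal, close to background in C4 and D9. A slide term was not run, since Groups C and M share 1 slide and Group D fills the other.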
